A study of Mus musculus with 8 samples.

Results

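RNA bound to ribosomes was compared with total RNA in mouse epiblast-like aggregates (ELA), gene by gene. Every gene of the deposited count table was taken, 3160 of 3160, in the 4 ELA libraries of the 8 in the series: 2 of RNA pulled down through Rpl10a, a protein of the large ribosomal subunit (Rpl10a-IP), and 2 of total RNA from the same kind of lysate (input). ELA were made from E14Tg2A, an established mouse embryonic stem (ES) cell line of 129/Ola origin, by growing the cells as floating aggregates for 2 days in a defined medium without serum and without leukemia inhibitory factor, the cytokine that holds ES cells in self-renewal. Before lysis, the cells were treated for 15 min with cycloheximide at 100 µg/ml, which arrests ribosomes on the mRNA. The input was 0.1 of the lysate volume, and 16 µg of antibody were used for the immunoprecipitation. The other 4 libraries are the same 2 fractions of undifferentiated ES cells and appear here only for contrast. The antibody binds endogenous Rpl10a. All samples came from 1 cell line. The paper states that the experiments were done in duplicate, but no source used here says whether the 2 replicates of a group were separate cultures. The p-values therefore measure only the spread between these libraries, pooled over genes.

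An mRNA that is being translated carries several ribosomes, and its share in the ribosome-bound fraction, set against its share in total RNA, is therefore read as a measure of ribosome occupancy. Ribosomes bind over the coding sequence, so a long coding sequence has room for more of them. Some mRNAs are known to be held back from ribosomes: those of ribosomal proteins start with a run of pyrimidines (the 5′ terminal oligopyrimidine tract) through which they respond together to growth signals, and that of the ferritin heavy chain carries an iron-responsive element. ELA stand for the exit from naive pluripotency, when cells lose transcription factors such as Nanog and Klf4 and gain de novo DNA methyltransferases.

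The Rpl10a-IP libraries of ELA held 23483388 and 16076207 reads over these genes and the input libraries 159587 and 410192, against 3898414 to 19233487 in the 4 ES libraries. The median gene had 26 reads in ELA input replicate 1 and 66 in replicate 2, and 381 genes had fewer than 10 reads in replicate 1, which the study's methods leave out but the table holds. The paper's grounds were its poor correlation with the other libraries, fewer mapped reads, lower read quality and more PCR duplicates. Enrichments and calls per gene, list medians and medians by coding length were therefore also computed with ELA input replicate 2 alone. Counts of called list members, values by start sequence and a later correction for coding length and GC content are given only with both. The reads of the 2 ELA input libraries differed by no more than sampling noise (chi-square over its degrees of freedom 0.957, against 6.04 to 27.2 for the other replicate pairs). The authors kept only genes whose replicate ratios were close, which lowers that value, and the libraries were counted as 2. Summed as 1 library, they gave 2203 called genes in place of 2147. The same filter makes replicates look alike, so the adjusted p-values are smaller than they should be and counts of called genes are upper figures.

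The label was checked against marker genes in the input libraries. Of 11 naive markers 4 were in the table, and all were lower in ELA than in ES input, by 13.4-fold for Tfcp2l1, 8.02-fold for Nanog, 3.45-fold for Klf4 and 3.35-fold for Klf2. Of 5 general pluripotency markers 3 were in the table: Pou5f1 was 2.43-fold lower in ELA input, and Sall4 and Lin28a were at 1.11 and 1.02 of their ES levels. Dnmt3b and Dnmt3a, the 2 of 8 primed epiblast markers in the table, were 5.73-fold and 1.53-fold higher in ELA. The neural markers Nes, Map2 and Ncam1 (3 of 6 in the table) were 5.32-, 3.82- and 2.19-fold higher, and the primitive endoderm marker Lama1 (1 of 7) was at 0.536 of its ES level. These ratios are given with no test. None of the 6 mesoderm, 6 trophoblast and 6 fibroblast feeder markers was in the table, which was filtered and so does not show that they were at 0.

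Ribosome enrichment is given below as the log2 of the Rpl10a-IP over the input normalised count, shifted so that the median gene is at 0. The unshifted Rpl10a-IP counts exceeded input by 16.55-fold at the median because the authors scaled the 2 fractions separately, so only differences between genes can be read, and Rpl10a-IP values are printed after division by that ratio. A gene was called at a Benjamini-Hochberg adjusted p under 0.05 in limma, and the standard error of a log2 enrichment had a median of 0.154 (0.142 to 0.225, n = 2 libraries in each fraction). These standard errors (SE) come from a variance shared by genes of similar level. They do not show how far the replicates of a single gene lie apart, which the printed counts show.

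In ELA, ribosome-bound RNA differed widely from total RNA. Of 3160 genes, 2147 were called (67.9%), 1086 higher in Rpl10a-IP (34.4%) and 1061 lower (33.6%). Beyond 2-fold, 304 genes were higher (9.62%) and 377 lower (11.9%). Scaled by total reads instead, which moves the median gene by −0.123, the counts were 912 higher and 1259 lower, and 228 and 464 beyond 2-fold. Both Rpl10a-IP libraries lay on the same side of both input libraries in 2606 genes (82.5%). Without ELA input replicate 1, all 304 and all 377 genes beyond 2-fold were still called in the same direction. Every count of called list members below is to be read against the 34.4% higher and 33.6% lower, and every statement that fractions do not overlap against the 82.5%. In bulk samples such as these, fewer cells of a type and less RNA per cell cannot be told apart.

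The distribution was wide compared with ES cells, in which the same measure was narrow. Its SD over genes was 0.812 in ELA and 0.298 in ES, and 95% of the genes lay between −1.69 and 1.47 in ELA and between −0.63 and 0.53 in ES. In ES, 693 genes were called higher (21.9%) and 604 lower (19.1%), and 4 of these calls, all of them lower, lay beyond 2-fold. The order of genes was partly shared, with a Spearman's rho of 0.528 over 3160 genes, which are not independent replicates and share the depth and base composition of their libraries. The ELA input is far shallower than the ES input, and the part of that depth in the wider spread was not tested. The SD among the 1463 genes with at least 100 ELA input reads was 0.856.

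**Figure D1:**
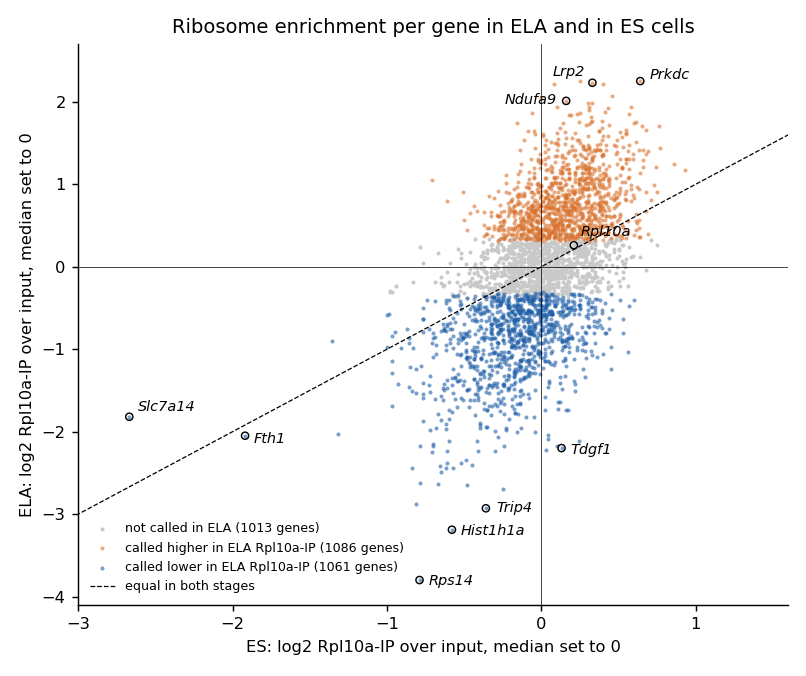
Each point is 1 of 3160 genes, with the log2 ribosome enrichment in ES on the horizontal axis and in ELA on the vertical axis, the median gene set to 0 in both. Colours mark genes called higher (1086) or lower (1061) in ELA Rpl10a-IP, and the cloud is stretched along the ELA axis, with Fth1 close to the dashed line of equal enrichment and Rps14, Hist1h1a and Trip4 far below it.

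Among lists with 3 or more genes, the cytosolic ribosomal proteins, the subunits of the ribosome itself, had the lowest median. Of 39 genes in the table, 36 were lower in ELA Rpl10a-IP, 33 of them beyond 2-fold, and none was higher, against 33.6% of all genes lower. Their median enrichment was −1.46 (−1.49 without ELA input replicate 1), where the median of all genes is 0, and in ES it was −0.41. These genes have near-identical processed pseudogenes, which could share their reads, so single values are uncertain. Rps14, a protein of the small subunit, was the most depleted gene of the table. Its input counts were 1320 and 871 and its Rpl10a-IP counts 103 and 56.9, with a log2 enrichment of −3.80 (SE 0.15, limma adjusted p 3e-135), a 14-fold difference. Rps24, a further protein of the small subunit, went from input counts of 4810 and 4470 to 812 and 974 in Rpl10a-IP (−2.38, adjusted p 7.91e-59). In both genes the Rpl10a-IP libraries lay below both input libraries with no overlap. Rps19 (−2.88) and Rps16 (−2.62) followed.

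The 3 ribosomal protein genes that did not pass the test were Rpl5 (−0.30), Rpl3 (−0.11) and Rpl10a itself. Rpl10a encodes the protein bound by the antibody. Its counts were 941 and 883 in input and 1220 and 982 in Rpl10a-IP, so the fractions did not overlap, but the enrichment of 0.26 did not pass (SE 0.14, adjusted p 0.0922). Without ELA input replicate 1 it was 0.34 and passed (adjusted p 0.026). In ES the value was 0.21 (adjusted p 0.0379), and ELA and ES were not told apart (difference 0.05, adjusted p 0.828).

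The start of the ribosomal protein genes is shown because their mRNAs are known for the pyrimidine run. The sequences, from RefSeq on GRCm38.p6, run 5′ to 3′ on the sense strand from 15 bases before the annotated start, and capitals mark the run of a C followed by 4 or more C or T that begins at the annotated start.
Rpl15, chr14:18270972-18271001, minus strand: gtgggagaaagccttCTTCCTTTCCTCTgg
Rpl35, chr2:39005117-39005146, minus strand: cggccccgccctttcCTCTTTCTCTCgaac
Rpl38, chr11:114668565-114668594, plus strand: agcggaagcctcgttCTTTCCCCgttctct
Rps6, chr4:86857353-86857382, minus strand: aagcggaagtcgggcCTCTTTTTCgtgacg
Rpl10a, chr17:28328550-28328579, plus strand: gctctatttgagcgcatgcgcaaagcgctc
Rpl10a, chr17:28328456-28328485, plus strand: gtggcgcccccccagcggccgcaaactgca

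The first 4 genes are those whose annotated start held the run, 13.8% of the 29 ribosomal protein genes with a sequence, against 2.79% of 2547 table genes and 2.51% of 32851 annotated starts. The search used the sense strand only. Their enrichment in ELA was −0.88 for Rpl15, −1.85 for Rpl35, −2.17 for Rpl38 and −0.81 for Rps6. The median enrichment was −1.36 for the ribosomal protein genes with the run and −1.46 for those without, and −0.34 for the other table genes with the run and 0.01 for those without, given as a description with no test. Neither annotated start of Rpl10a held it. Annotated starts can lie some bases from the start in use: within 5 bases, the run was found in 34.5% of the ribosomal protein genes, 22.9% of the table genes and 18.3% of all annotated starts.

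Histone mRNAs were depleted as well. Both replication-dependent histone genes in the table were lower. Hist1h1a (chromosome 13, 23763668 to 23764412, GRCm38.p6), a linker histone, had input counts of 2190 and 1730 and Rpl10a-IP counts of 231 and 197 (−3.19, SE 0.14, adjusted p 8.31e-103), and Hist1h2af, a core histone H2A, had an enrichment of −2.44 on 11 and 26 input reads. Histone mRNAs of this class end in a stem-loop in place of a poly(A) tail, and ribosomal RNA depletion, used for these libraries, does not select for tails. The 4 replacement histones, whose mRNAs are polyadenylated, were lower too, with a median of −1.42 in ELA and −0.04 in ES. Among them, H3f3a (−1.96) and H3f3b (−1.41) encode the variant H3.3, and their ES values were −0.13 and 0.05, neither of which passed the test. Histone genes come in many nearly identical copies, which makes their values uncertain.

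**Figure D2:**
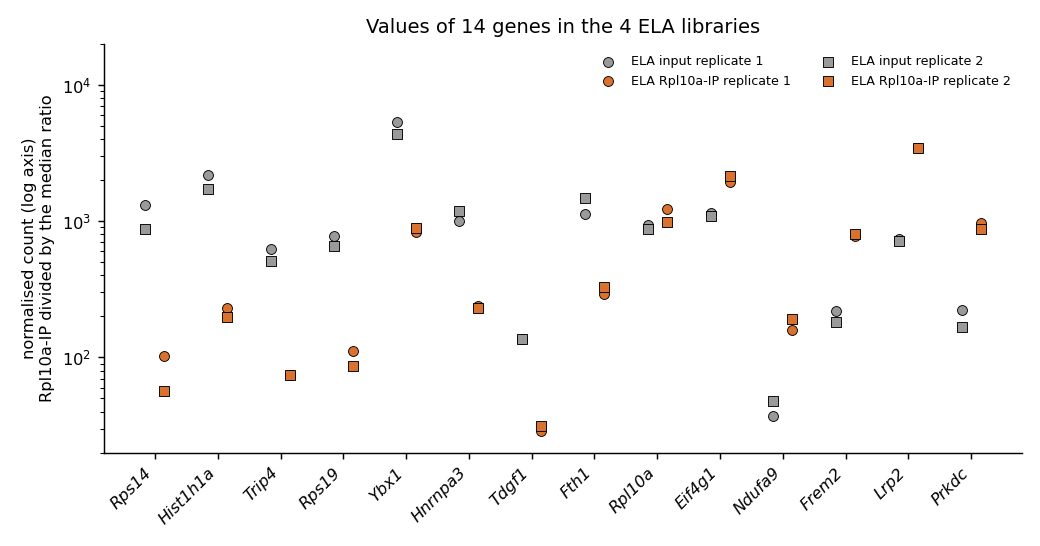
Normalised counts of 14 genes in the 4 ELA libraries on a log axis, with the Rpl10a-IP counts divided by the median ratio of 16.55 (grey, input; orange, Rpl10a-IP; circles, replicate 1; squares, replicate 2). The Rpl10a-IP points lie below the input points from Rps14 to Fth1 and above them from Eif4g1 to Prkdc, and the replicates of a fraction lie close together compared with the gap between fractions, except for Rpl10a.

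RNA-binding proteins of splicing formed a further depleted group. Of 28 hnRNP and SR protein genes, which bind nascent transcripts and choose splice sites, 24 were lower in ELA Rpl10a-IP (33.6% of all genes were) and none was higher. Their median was −0.76 in ELA (−0.82 without ELA input replicate 1) and −0.07 in ES, and the difference between stages passed the interaction test in 23 of the 28, all of them lower in ELA, where 27.6% of all genes were. Hnrnpa3, an hnRNP of the A/B type, had input counts of 997 and 1180 and Rpl10a-IP counts of 238 and 229 (−2.22, SE 0.14, adjusted p 4.08e-50). In ES its enrichment was 0.03 (adjusted p 0.807). Srsf9, a small SR protein, was at −1.66. The 4 members that did not pass were Hnrnpk (0.18), Hnrnpu (0.17), Hnrnpll (0.09) and Hnrnpl (0.08).

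Of 29 spliceosome subunit genes, 21 were lower and 3 higher, with a median of −0.63 in ELA and −0.15 in ES. Snrpd2, a small Sm protein of the spliceosomal ring, was at −2.41 and Lsm7, a small Sm-like protein, at −1.75. Prpf8, the large scaffold at the catalytic centre, was higher, from input counts of 997 and 856 to 2820 and 2850 (1.62, adjusted p 3.75e-28), and Sf3b3, a large subunit of the branch site complex, was at 1.27. The Rpl10a-IP libraries of Prpf8 lay above both input libraries. Ybx1, a cold-shock domain protein that coats mRNAs, was also among the 10 most depleted genes, with 5370 and 4360 in input and 835 and 886 in Rpl10a-IP (−2.49, adjusted p 4.68e-64).

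Of the remaining most depleted genes, Trip4 (chromosome 9, 65828926 to 65908875), a transcriptional coactivator, had a coding length of 1746 nt, near the median of 1668 nt. Its input counts were 623 and 509 and its Rpl10a-IP counts 74.4 and 74.1 (−2.93, SE 0.15, adjusted p 7.22e-78). Ubqln2, a shuttle factor that brings ubiquitinated proteins to the proteasome, was encoded by 1917 nt and was at −2.70. Pdcd5, a small protein linked to cell death (−2.65), and Ndufc1, a small subunit of respiratory complex I (−2.64), had coding lengths of 618 and 231 nt. In ES, Trip4 and Ubqln2 were at −0.36 and −0.25. Trip4 had 119 and 122 in ES input and 92.8 and 95.8 in ES Rpl10a-IP. Ubqln2 had 74.0 and 86.2 in ES input and 63.9 and 71.9 in ES Rpl10a-IP, and 399 and 311 and 59.0 and 49.8 in ELA. Both genes differed more between the stages in input than in Rpl10a-IP.

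Genes of naive pluripotency were lower in ribosome-bound than in total RNA of ELA. Of the 8 naive genes measured, 6 were lower in Rpl10a-IP (33.6% of all genes were) and none was higher, and their median was −0.93 in ELA (−0.82 without ELA input replicate 1) and 0.04 in ES. Tdgf1, a Nodal co-receptor, had input counts of 137 and 136 and Rpl10a-IP counts of 28.6 and 31.1 (−2.20, SE 0.17, adjusted p 7.47e-36), against 0.13 in ES (adjusted p 0.224). Dppa2, a chromatin-bound protein of pluripotent cells, was at −1.74 on 15 and 34 input reads. The transcription factors Nanog (−1.24), Tfcp2l1 (−1.15) and Klf4 (−0.71) were lower, as was Sall4 (−0.54), which the list holds although it marks pluripotent cells in general, and in none of the 4 did the fractions overlap, as in 82.5% of all genes. Nanog was higher in ES Rpl10a-IP (0.27, adjusted p 0.00858), and the interaction test gave a difference of −1.51 (SE 0.17, adjusted p 4.77e-10). Klf2 (−0.25, adjusted p 0.176) and Fgf4, a growth factor that drives exit from the naive state (0.10, adjusted p 0.624), did not pass. Pou5f1, the general pluripotency factor Oct4, was at −0.58 (adjusted p 0.000128). Nanog and Pou5f1 have pseudogenes, and their values are uncertain.

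Of 7 genes of the primed epiblast, 4 were higher and 1 was lower, with a median of 0.31 in ELA and −0.09 in ES. Greb1l, a regulator of retinoic acid responses in the embryo, had input counts of 299 and 309 and Rpl10a-IP counts of 881 and 956 (1.59, adjusted p 1.07e-26), and Enpp2, the secreted enzyme autotaxin, was at 1.34. Dnmt3b, the de novo DNA methyltransferase, was at 0.45 (adjusted p 0.00357) and Zfp608 at 0.31. Zic5, a zinc finger factor, was at −0.39 and was the member that was lower, while Sox11 (−0.26) and Dnmt3a (0.09) did not pass. Without ELA input replicate 1, Zic5 no longer passed (−0.34, adjusted p 0.052) and Sox11 did (−0.29, adjusted p 0.0452). The neural markers were lower in Rpl10a-IP. Map2, a microtubule-associated protein, was at −1.34, Ncam1, an adhesion molecule, at −1.30, and Nes, an intermediate filament, at −0.72.

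Of 27 initiation factor genes 6 were higher and 11 lower (median −0.15), against 34.4% and 33.6% of all genes. Eif4g1, the scaffold of cap-dependent initiation, was higher, with 1150 and 1100 in input and 1930 and 2140 in Rpl10a-IP (0.85, adjusted p 8.13e-09), and so was Eif2ak3 (0.96), the stress kinase PERK that phosphorylates an initiation factor. Eif1ax (−1.05), a small scanning factor, and Eif5a (−1.01), which binds stalled ribosomes, were lower. Of 8 elongation and release factors 2 were higher and 4 lower. Abce1, which recycles ribosomes, was at 0.55 and Hbs1l, a ribosome rescue factor, at 0.42. Eef1e1, a small auxiliary protein of the synthetase complex and no elongation factor despite its symbol, was at −1.82, and Eef1b2, the exchange factor of elongation factor 1, at −0.88. Of 11 aminoacyl-tRNA synthetases, which charge tRNAs, 5 were higher and none was lower (median 0.30, and 0.38 without ELA input replicate 1), with Lars (1.48) and Mars (1.18) at the top.

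Genes of the DNA damage response lay at the other end. Of 9 genes of damage signalling and the related giant kinases (the PIKK family), 7 were higher (34.4% of all genes were) and 1 was lower, with a median of 1.34 in ELA (1.24 without ELA input replicate 1) and 0.30 in ES. Prkdc (chromosome 16, 15637444 to 15842239), the catalytic subunit of the DNA-dependent protein kinase that joins broken ends, had the highest enrichment in the table. Its counts were 224 and 166 in input and 970 and 878 in Rpl10a-IP (2.25, SE 0.15, adjusted p 5.43e-51), a 4.76-fold difference, with every Rpl10a-IP value above every input value. Atm, the kinase that signals double-strand breaks, went from 380 and 497 to 1540 and 1610 (1.85, adjusted p 2.37e-36). Smg1, a kinase of nonsense-mediated decay (1.73), Trrap, a kinase-like cofactor of histone acetylation (1.59), and Mtor, the growth kinase (1.34), were also higher. Mdc1, an adaptor at broken chromatin, was at −0.41 (adjusted p 0.00848) and passed only with ELA input replicate 1 (adjusted p 0.0787 without it), and Trp53bp1 was at 0.10 (adjusted p 0.534).

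Homologous recombination and Fanconi anaemia genes repair breaks and crosslinks. Of 13, 9 were higher and none was lower, with a median of 0.97 (0.83 without ELA input replicate 1) and 0.16 in ES. Brip1, the helicase partner of Brca1, was at 2.21, but on 4 and 15 input reads. Brca2, a mediator of recombination, went from 287 and 269 to 852 and 1050 (1.76, adjusted p 1.93e-32). Nbn, a subunit of the break sensor, was at −0.13 and did not pass. Of 27 DNA replication genes 13 were higher and 4 lower (median 0.32). Pole, the leading strand polymerase (1.46), and Mcm6, a subunit of the replicative helicase (1.43), were the highest, and Gins2, a small subunit of the same helicase (−1.62), and Top1, a topoisomerase (−0.64), the lowest.

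Among genes of chromosome movement and structure (kinesins, cohesin, condensin and kinetochore), 27 of 37 were higher (34.4% of all genes were) and 4 lower, with a median of 0.67 in ELA and 0.15 in ES. Ncapg, a subunit of condensin, was at 1.66 and Casc5, a large kinetochore scaffold, at 1.46. Kif3a, a kinesin of cilia with a coding length of 2178 nt, was at −1.66, and Cenpa, the small histone H3 variant of centromeres, at −1.62. Kif3a had input counts of 362 and 434 and Rpl10a-IP counts of 122 and 128, which did not overlap.

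Among chromatin regulators, all 11 lysine demethylase genes in the table were higher in ELA Rpl10a-IP, against 34.4% of all genes, with enrichments from 0.37 to 1.45, a median of 0.91 (0.88 without ELA input replicate 1) and an ES median of 0.14. Kdm6a, which removes methyl groups from lysine 27 of histone H3, had input counts of 243 and 223 and Rpl10a-IP counts of 615 and 668 (1.45, SE 0.15, adjusted p 4.36e-22). Jmjd1c was at 1.41, and Kdm2a was the lowest at 0.37 (adjusted p 0.0178). The difference between ELA and ES passed in 9 of the 11, all of them higher in ELA. Of 15 lysine methyltransferase genes 8 were higher and 4 lower (median 0.47). Setdb1 (1.20) and Nsd1 (1.14) were the highest. Setd1b (−1.52) and Setd1a (−1.47), the catalytic subunits of the complexes that methylate lysine 4 of histone H3 at promoters, were lower, and Setd1a had 642 and 527 in input and 211 and 208 in Rpl10a-IP.

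Of 26 ATP-dependent remodeller genes 14 were higher and 3 lower (median 0.37), with Ep400 (1.39) and Pbrm1 (1.29), both large subunits, at the top and the small subunits Smarce1 (−1.14) and Ino80c (−1.11) at the bottom. Of 14 Polycomb genes 3 were higher and 5 lower (median −0.05), with the lower share near that of all genes. Bcor (0.72) and Ezh1 (0.66) were the highest and Pcgf3 (−1.35) and Rybp (−0.93) the lowest. Of 4 genes of DNA methylation, Uhrf1, which guides maintenance methylation, was higher (0.49), as was Dnmt3b. After the correction for coding length and GC content described below, neither Uhrf1 (0.26, adjusted p 0.064) nor Dnmt3b (0.17, adjusted p 0.148) passed. Tet1, which oxidises methylcytosine, was at 0.29 and did not pass (adjusted p 0.0596), although it did with the replicate block (adjusted p 0.0391) and without ELA input replicate 1 (0.39, adjusted p 0.00741). Of 73 Zfp and Zbtb zinc finger genes 21 were higher and 20 lower, with a median of 0.07, no more than the shares of all genes.

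In the microRNA pathway, 4 of 8 genes were higher (34.4% of all genes were) and 1 was lower (median 0.35). Xpo5, which exports microRNA precursors, had input counts of 249 and 306 and Rpl10a-IP counts of 657 and 731 (1.32, adjusted p 1.14e-18), and Tnrc6b, a scaffold of the silencing complex, was at 0.66. Mov10, a helicase of the same complex, was at −0.54 with ELA input replicate 1 and did not pass without it (−0.29, adjusted p 0.18). Lin28a, which binds let-7 precursors, was at −0.23 and did not pass (adjusted p 0.133), but did without ELA input replicate 1 (−0.45, adjusted p 0.00401).

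All 8 genes of laminins, collagens and other matrix proteins were higher, with a median of 1.28 (1.43 without ELA input replicate 1) and 0.10 in ES, and all 8 differed between the stages. Frem2, an extracellular matrix protein of basement membranes, had input counts of 218 and 181 and Rpl10a-IP counts of 773 and 804 (1.98, SE 0.15, adjusted p 1.01e-39), and Nid2, which links laminin to collagen, was at 1.65. Lamb1 (0.92) and Fn1 (0.47) were the lowest of the 8. Lrp2 (chromosome 2, 69424335 to 69586029), a giant endocytic receptor, went from 742 and 720 to 3430 and 3450 (2.23, SE 0.14, adjusted p 3.84e-52), and Fat1, a giant cadherin, from 1660 in both input libraries to 5750 and 6140 (1.84, adjusted p 3.14e-35). Cdh1, the epithelial cadherin, was at −0.04 (adjusted p 0.805), with fractions that overlapped.

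Of 21 giant cytoskeletal and motor genes 15 were higher and 2 lower, with a median of 0.90 in ELA and −0.02 in ES. Syne2, which ties the nucleus to the cytoskeleton, went from 424 and 349 to 1480 and 1340 (1.86, adjusted p 1.13e-36), and Dst, a cross-linker of filaments, was at 1.74. Myo18a (−0.41) and Myh10 (−0.40), both myosins, were lower with both input libraries but did not pass without replicate 1 (adjusted p 0.0512 and 0.413). Of 54 ubiquitin ligase and deubiquitinase genes 38 were higher and 6 lower (median 0.64), with the ligase Herc1 at 1.84 and Usp8, a deubiquitinase of endosomes, at −1.13. Of 31 nucleoporin and importin genes 20 were higher and 2 lower (median 0.73), with Nup205, a large scaffold of the pore, at 1.94 and Pom121, which anchors the pore in the membrane, at −1.08.

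In contrast, 12 of 20 genes of actin, tubulin and small actin-binding proteins were lower (33.6% of all genes were) and 3 were higher (median −0.66, and −0.14 in ES). Tagln2 went from 143 and 153 to 32.0 and 27.0 (−2.34, adjusted p 1.33e-40), and Tmsb4x, which sequesters actin monomers and has a coding length of 153 nt, was at −1.96. The members that were higher were all β-tubulins: Tubb4b (0.85), Tubb5 (0.36) and Tubb6 (0.35). Tubulin genes are close copies of each other, and reads shared between them make these values uncertain.

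**Figure D3:**
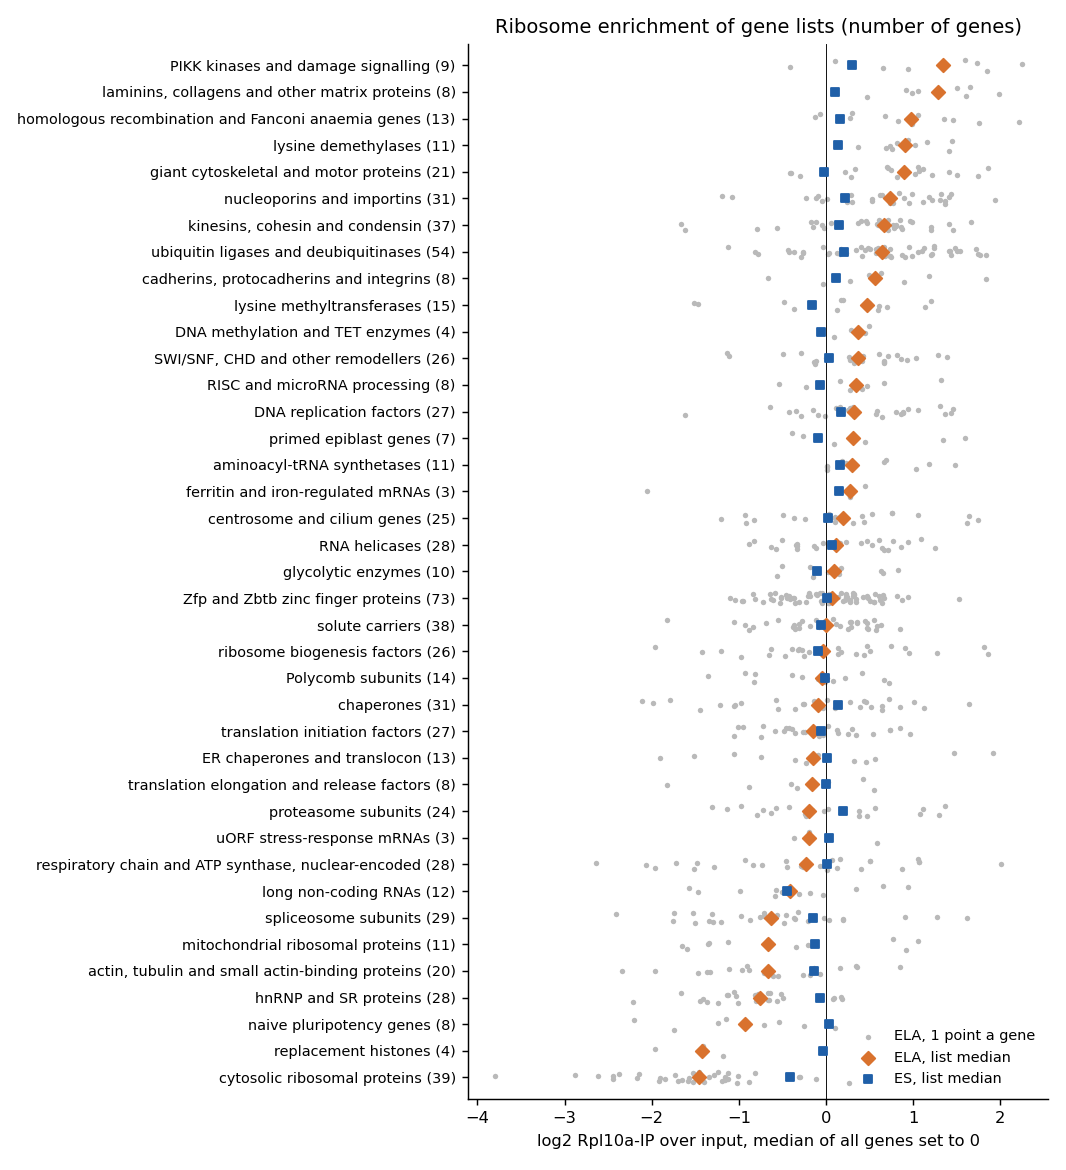
Log2 ribosome enrichment of the members of gene lists with 3 or more genes in the table (grey, 1 point a gene in ELA; orange, list median in ELA; blue, list median in ES), with the number of genes in parentheses and the median of all genes at 0. The lists run from cytosolic ribosomal proteins (ELA median −1.46) to the PIKK kinases (1.34), and the ES medians stay between −0.45 and 0.30.

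Of 28 nuclear genes of the respiratory chain and ATP synthase 8 were higher and 12 lower (median −0.23). Ndufa9, a subunit of complex I, was at the top, with 37.4 and 47.7 in input and 159 and 190 in Rpl10a-IP (2.01, SE 0.16, adjusted p 4.23e-32), on only 6 and 19 input reads. Ndufc1 and Ndufa7 (−2.06), also of complex I, were among the lowest. Of 11 mitochondrial ribosomal protein genes 3 were higher and 6 lower, from Mrps30 (1.06, and 0.67 without ELA input replicate 1) to Mrpl18 (−1.65). For the proteasome, chaperones, endoplasmic reticulum and ribosome biogenesis the counts lay near the shares of all genes (34.4% higher, 33.6% lower), and the values describe single members. Of 24 proteasome genes 8 were higher and 8 lower: Psme4, a large activator, was at 1.36 and Psma5, a subunit of the core ring, at 1.30, while Psme1, a subunit of another activator, was at −1.31. Of 31 chaperone genes 11 were higher and 11 lower, with Dnajc13 (1.64) and Cct3 (1.12) high and the small heat shock protein Hspb1 low (−2.11, on 4 and 9 input reads). Of 13 genes of the endoplasmic reticulum 5 were higher and 5 lower, with the glucosyltransferases Uggt1 (1.92) and Uggt2 (1.47) at the top and the small signal recognition particle proteins Srp19 (−1.90) and Srp9 (−1.51) at the bottom. Ribosome biogenesis factors were spread, from Mdn1, a giant ATPase (1.86), to Utp23 (−1.96), with 10 of 26 higher and 9 lower.

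In the remaining lists the counts are to be read against 34.4% of all genes higher and 33.6% lower. Of 28 RNA helicases 12 were higher and 8 lower (median 0.12), from Ddx20 (1.25) to Ddx54 (−0.88). Of 25 centrosome and cilium genes 10 were higher and 5 lower (median 0.19), from Cep192 (1.74) to Cep57 (−1.21). Of 38 solute carriers 11 were higher and 10 lower (median 0.00). Of 8 cadherins, protocadherins and integrins 5 were higher and 1, Itga5 (−0.66), was lower. Of 10 glycolytic genes 3 were higher and 2 lower, with Pfkm (0.83) and Hk2 (0.65), which commit glucose to breakdown, at the top. The 3 listed mRNAs with upstream reading frames were Ifrd1 (0.59), Ppp1r15b (−0.20, adjusted p 0.207) and Ppp1r15a (−0.37, adjusted p 0.04, and −0.65 without ELA input replicate 1).

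Among iron-regulated mRNAs, Fth1, the ferritin heavy chain, had input counts of 1130 and 1480 and Rpl10a-IP counts of 294 and 331 in ELA (−2.05, SE 0.14, adjusted p 6.99e-44). In ES it had 1150 in both input libraries and 293 and 313 in Rpl10a-IP (−1.92). The difference of −0.13 did not pass (SE 0.17, adjusted p 0.519), although 1739 of 3160 genes did. Tfrc, the transferrin receptor, was higher in both stages (0.45 and 0.54). Fth1 has pseudogenes that could share its reads. Slc7a14, a lysosomal amino acid transporter, was depleted in both stages, at −1.82 in ELA and −2.67 in ES, and less so in ELA (difference 0.85, adjusted p 0.000754).

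Long non-coding RNAs give a view of RNAs with no known long reading frame. Of 12 in the table by RefSeq biotype 6 were lower (33.6% of all genes were) and 2 higher, with a median of −0.41 in ELA and −0.45 in ES. Gm2373 (−1.57) and 2410007B07Rik (−1.47) were the lowest. Mir17hg, the host of a microRNA cluster, was at 0.94 on 8 and 21 input reads, and Rian, an imprinted RNA that hosts small nucleolar RNAs and microRNAs, went from 1680 and 1880 to 2720 and 2870 (0.65, adjusted p 1.25e-05). In ES, Rian was lower in Rpl10a-IP (−0.46, adjusted p 3.73e-06), and the difference of 1.11 passed the interaction test (adjusted p 8.53e-08).

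Across the table, enrichment in ELA followed coding length. Spearman's rho between the log2 enrichment and the longest annotated coding length was 0.647 over 3117 genes in ELA, 0.623 and 0.658 in the replicate pairs taken singly, and 0.259 in ES. It was 0.591 for the number of exons (0.278 in ES), 0.398 for the median transcript length and 0.0245 and 0.0296 for the 5′ and 3′ untranslated regions over 2966 genes. Points share their libraries and base composition, and genes are not replicates. GC content had a rho of −0.0469 in ELA and −0.439 in ES, and the input level one of −0.0128 in ELA.

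The genes were divided into 5 classes of nearly equal size by coding length. The ELA medians were −0.82 for genes of 114 to 918 nt, −0.23, 0.01 and 0.30 for the classes between, and 0.73 for genes of 3165 nt or more. The ES medians of the outer classes were −0.14 and 0.09. In the shortest class, 467 of 631 genes were called lower and 29 higher in ELA, and in the longest 40 of 623 were lower and 460 higher. Without ELA input replicate 1 the median of the shortest class was −0.85.

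**Figure D4:**
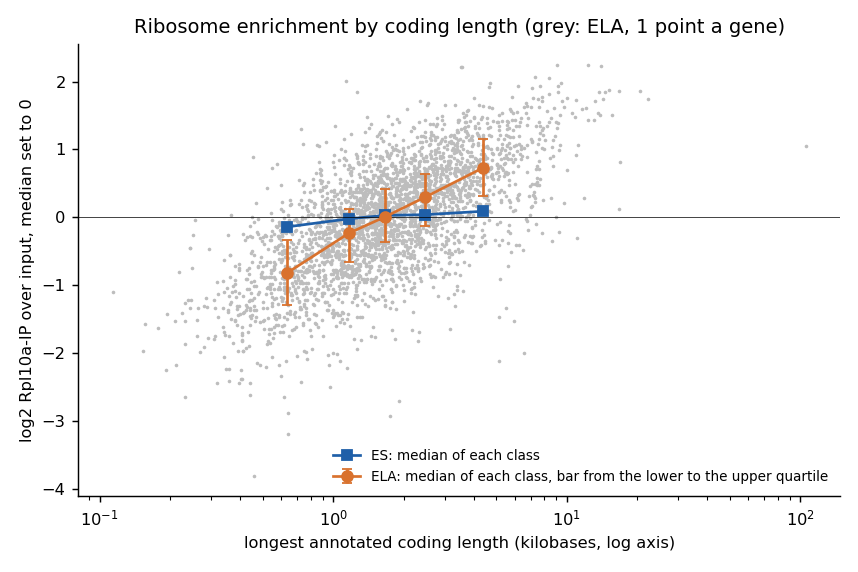
Log2 ribosome enrichment against the longest annotated coding length in kilobases on a log axis (grey, 1 point a gene in ELA), with the median of each class at the median length of the class (orange, ELA with quartiles; blue, ES). The ELA medians run from −0.82 to 0.73 and the ES medians from −0.14 to 0.09.

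The same contrast was present in the reads of single libraries, before any ratio was taken. The shortest class took 21% (95% Wilson interval 20.8 to 21.2%) and 21.7% (21.5 to 21.8%) of the reads of the ELA input libraries and 10.6% and 10.7% of those of the ELA Rpl10a-IP libraries. The longest class took 23.9% (23.6 to 24.1%) and 22.6% (22.4 to 22.7%) of input and 38.2% (38.1 to 38.2%) and 37.6% (37.6 to 37.7%) of Rpl10a-IP. In the 4 ES libraries the shortest class took 20.8 to 24.0% and the longest 19.7 to 22.3%. The ELA Rpl10a-IP shares lay outside the range of the other 6 libraries in both classes. Ribosomal protein mRNAs took 5.44% and 5.52% of ELA input and 2.32% and 2.29% of ELA Rpl10a-IP reads, and 7.42% and 6.85% of ES input and 5.49% and 5.79% of ES Rpl10a-IP reads. These intervals cover counting error only, since reads were counted without molecular identifiers.

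**Figure D5:**
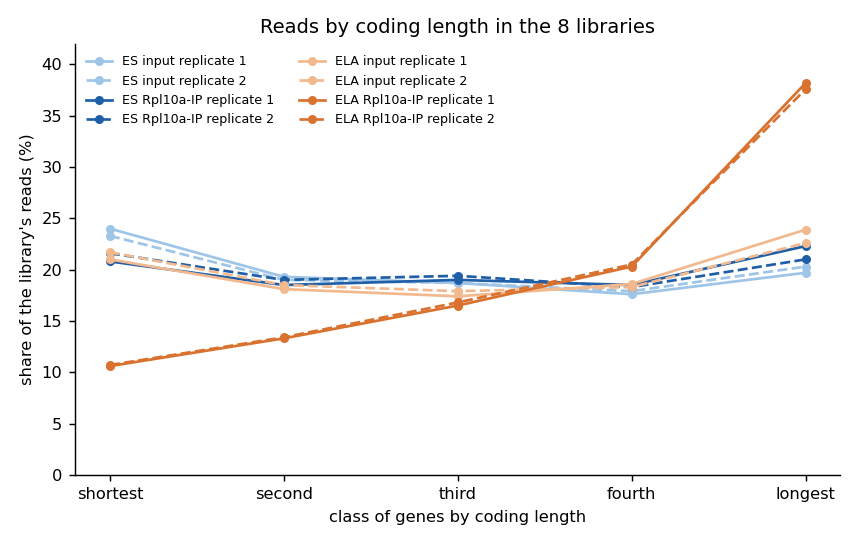
Share of each library's reads, in percent, that fell on each of the 5 classes of coding length, in the 8 libraries (light, input; dark, Rpl10a-IP; blue, ES; orange, ELA; dashed, replicate 2). The ELA Rpl10a-IP libraries rise from 10.6 and 10.7% in the shortest to 38.2 and 37.6% in the longest class, while the other 6 libraries stay between 17.4 and 24.0%.

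Some genes stood against the relation. Only 4 genes of the shortest class were higher beyond 2-fold: Psma5 (1.30) and Psma6 (1.08), subunits of the proteasome core, Vdac3, a channel of the outer mitochondrial membrane (1.07), and Pgam5, a mitochondrial phosphatase (1.05). In the longest class 10 were lower beyond 2-fold: Nrxn2 (−2.12), Naca (−2.0), Setd1b, Setd1a, Map2, Ncam1, Usp8, Pom121, Gnas (−1.07) and Ubap2 (−1.01). Coding length is that of the longest annotated reading frame, and which isoforms these cells use was not tested. Those of these genes that lie outside the rule for named genes were chosen after their values were seen.

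After each library was corrected for coding length and GC content, with the replicate number as a block, the SD over genes in ELA was 0.591, and 262 of the 304 and 309 of the 377 genes beyond 2-fold were still called in the same direction. Of the 3117 genes in that fit 925 were higher and 984 lower, which is the background of the corrected counts. The median of the ribosomal proteins became −0.51, with 27 of 39 lower and 1 higher. Among the chromatin regulators fewer genes were called higher: 5 of 10 lysine demethylases with a coding length, 4 of 15 lysine methyltransferases (6 lower, median turned from 0.47 to −0.18) and 2 of 26 remodellers (9 lower, median turned from 0.37 to −0.12). Of the 4 DNA methylation genes 0 were higher and 1 lower (median from 0.37 to 0.03). Of the 14 Polycomb genes 2 were higher and 8 lower (median from −0.05 to −0.31). The median of the hnRNP and SR proteins was −0.60 and that of the naive genes −0.89, close to the values without the correction. Of the 8 naive genes 6 were lower and 2 higher, the latter Fgf4 (0.80, adjusted p 1.93e-08) and Klf2 (0.39, adjusted p 0.00761). Other depleted lists came nearer to 0: replacement histones −0.40, spliceosome subunits −0.15 (13 of 29 lower), actin and tubulin genes −0.15 and mitochondrial ribosomal proteins 0.00. Medians of lists with long coding sequences came nearer to 0: 0.57 for the PIKK kinases, 0.55 for matrix proteins, 0.30 for homologous recombination, 0.27 for the lysine demethylases and −0.03 for the giant cytoskeletal genes. The kinesin, cohesin and condensin genes came to 0.09 (10 of 37 higher, 7 lower) and the ubiquitin genes to 0.16 (23 of 54 higher, 10 lower). The respiratory chain genes turned from −0.23 to 0.57, the microRNA pathway from 0.35 to −0.14 (3 of 8 higher, 2 lower), the centrosome and cilium genes from 0.19 to −0.20 and the proteasome genes from −0.19 to 0.14. Trip4 (−3.0) and Ubqln2 (−2.87) were the lowest of the named genes, Ndufa9 (2.19) the highest, and Rpl10a was at 1.07 (adjusted p 1.02e-17).

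The enrichment in ELA was then set against that in ES by the interaction of stage and fraction. It was higher in ELA in 868 genes (27.5%) and lower in 871 (27.6%). The genes with the most negative difference, among those with enough input reads, were Rps14 (−3.02), Hist1h1a (−2.60), Trip4 (−2.56), Ubqln2 (−2.45) and Tdgf1 (−2.33). Tdgf1 had 2130 and 2220 in ES input and 2370 and 2390 in ES Rpl10a-IP, so that its fractions differed little in ES and 4.59-fold in ELA. The most positive were Syne2 (1.93), Lrp2 (1.91), Dst (1.90), Ndufa9 (1.84) and Epg5, a large tethering factor of autophagy (1.83). Dst had 1710 and 1560 in ES input and 1760 and 1220 in ES Rpl10a-IP, and the fractions overlapped there, while in ELA it went from 2660 and 2070 to 8340 and 7380. By coding length, the change of the Rpl10a-IP libraries between ES and ELA had medians from −0.99 in the shortest to 0.79 in the longest class, and that of the input libraries from −0.33 to 0.13.

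Some RNAs with many reads were named for their reads per kilobase of the median annotated transcript. That length is shorter than the coding length for several of them, so no order of abundance is read from it. Eef1a1, the elongation factor that brings tRNAs to the ribosome, had counts of 12500 and 15300 in input and 10700 and 11300 in Rpl10a-IP (−0.33, adjusted p 0.0415), and did not pass without ELA input replicate 1 (adjusted p 0.0507). Hspa8, a constitutive chaperone, was at 0.27 (adjusted p 0.0916, and 0.0298 with the replicate block). Ptma, a small acidic nuclear protein, went from 6710 and 6470 to 2360 and 2870 (−1.34, adjusted p 4.31e-19), and Ctnnb1, the adhesion and Wnt signalling protein β-catenin, from 1910 and 1800 to 2860 and 2820 (0.61, adjusted p 4.35e-05). Eef1a1, Hspa8 and Ptma have processed pseudogenes, and their values are uncertain.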

How the data were processed

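RNA was sequenced from ELA and ES input and Rpl10a-IP libraries (Ribo-Zero Gold depletion, ScriptSeq v2). The authors mapped reads to the mm10 transcriptome with TopHat2 (repeats left out, at most 2 hits), counted them per gene with htseq-count and divided the counts by DESeq2 size factors. Versions, and whether counting used strand, are not given in the sources used here, so overlapping antisense genes are uncertain. The deposited values are a signal, read counts over a size factor, and whole reads were recovered for 100% of them (tolerance 0.01). The authors filtered the genes: the SD of the 2 replicate ratios was at most 0.1998 of their mean in ELA and 0.1995 in ES, and the larger mean input count at least 50.02. The deposited table also holds 26 columns of means, SDs, ratios, fold changes and a log2 change of the authors, which were not used.

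limma (version 3.58.1, R 4.3.3; lmFit, eBayes with a trended prior) was fitted to log2(normalised count + 1) of the 4 ELA libraries, with the Rpl10a-IP libraries shifted so that the median difference was 0; differences between stages used the interaction over 8 libraries. This log2 scale understates changes of low genes. In the ELA fit the prior degrees of freedom were infinite, so its standard errors and p-values rest on a variance shared by genes of similar level. The threshold was an adjusted p of 0.05. edgeR (4.0.16) and DESeq2 (1.42.0) on the recovered reads were alternatives. The code was run on simulated libraries with the same dispersion for all genes, without the authors' filter and without a length trend. That run therefore does not cover these features of the data. Input is a portion of the lysate and replicate numbers are shared. Same-numbered libraries deviated together from their group means over genes (r = 0.504 in ELA, 0.169 in ES), so the replicate number was also fitted as a block. The authors' filter on replicate ratios itself favours genes whose same-numbered libraries move together. These r values therefore cannot show pairing, and the p-values of the block fit are too small for the same reason.

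Coordinates and start sequences are from RefSeq (GRCm38.p6; 3021 genes matched by symbol, 128 by an older symbol, 11 not). Lengths are from GENCODE vM1 (3133 genes with a transcript length, 3117 with a coding length), and no coordinates of that release were used. The genes, 41 lists and markers were chosen with earlier results of these data known. Lists are symbol patterns; that for long non-coding RNAs was replaced by the RefSeq biotype, since it took in 2 coding genes. No mitochondrially encoded mRNA was in the table. Genes were named by rule: the 10 most and 10 least enriched called genes with at least 20 ELA input reads whose fractions do not overlap, the 2 highest and 2 lowest of each list, the 5 largest differences between stages each way, the 5 with the most reads per kilobase of median annotated transcript in each fraction, Rpl10a and markers. Other list members named were chosen after their values were seen. Control immunoprecipitations were not analysed here. Some named genes are not reported here.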

Additional observations from a re-analysis of the deposited data

Results flagged for a closer look

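The enrichment of 1739 genes differed between ELA and ES by the interaction test, with no weighing of causes here. Among genes with at least 20 ELA input reads, a difference past the threshold and fractions that do not overlap in ELA, the most negative differences were those of Rps14 (−3.02), Hist1h1a (−2.60), Trip4 (−2.56), Ubqln2 (−2.45) and Tdgf1 (−2.33). The most positive by the same rule were those of Syne2 (1.93), Lrp2 (1.91), Dst (1.90), Ndufa9 (1.84) and Epg5 (1.83). Each of these 10 passed with an adjusted p of 3.46e-11 or less in limma. The ELA input reads behind them were few in Ndufa9 (6 and 19) and Epg5 (6 and 16). The groups held 2 libraries each, so single libraries were not tested as outliers.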

How the results depend on the processing

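The limits are the depth of the ELA input, the filter made before deposit and the scaling of the fractions. In ELA, leaving out 1 library at a time gave 1572 to 2218 called genes, 774 to 1106 higher and 798 to 1112 lower, edgeR gave 1966 and DESeq2 1640, and the replicate block 2290 (1875 for the difference between stages, against 1739), and it changed the calls of 143 genes. Without centring 3159 genes were higher and 0 lower (all but 1 of them, 3158, higher beyond 2-fold). With at least 100 ELA input reads, 1463 genes were tested and fewer were called for that reason: 1041 (527 higher, 514 lower), 358 beyond 2-fold (170 and 188) and, between stages, 892 (448 and 444). With the block and the coding length and GC correction, added after seeing the data, 275 genes lay beyond 2-fold (101 and 174) of 3117. Under that setting, among the named genes with a coding length, 14 changed sign and passed the test in at least 1 of the fits: Cars (−0.30), Eif1ax (0.06), Eif5a (0.01), Fn1 (−0.36), Kdm2a (−0.17), Klf2 (0.39), Lin28a (0.43), Nsd1 (−0.01), Sox11 (0.38), Tet1 (−0.68), Tnrc6b (−0.21), Trp53bp1 (−0.79), Zfp106 (−0.39) and Zfp518a (−0.07). A further 13 named genes kept their sign but lost their call under that correction. Among them were Bcor (0.05), Casc5 (0.24), Dnmt3b (0.17), Hbs1l (0.22), Jmjd1c (0.24), Lama1 (0.08) and Lamb1 (0.2). The rest were Nop10 (−0.02), Ptma (−0.21), Srp9 (−0.24), Tfrc (0.15), Tpi1 (−0.09) and Uhrf1 (0.26). Another 6 kept their sign and gained a call: Cdh1 (−0.4), Fgf4 (0.8), Hnrnpk (0.28), Nbn (−0.4), Ppp1r15b (−0.39) and Rpl10a (1.07). Without ELA input replicate 1, 7 of the named genes lost and 5 gained their call, and those that changed sign (Cars, Kars, Dnmt3a and Fgf4) passed the test in neither fit. The SD over genes in ELA was 0.809 with total reads, a pseudocount of 10 or at least 30 ELA input reads, 0.81 with TMM, 0.856 with at least 100 reads, 0.808 to 0.83 leaving out 1 library, and 0.591 with the coding length and GC correction. The rho with median transcript length (0.398) became 0.413 with a pseudocount of 10, 0.415 and 0.462 with at least 30 and 100 reads, 0.387 to 0.399 leaving out 1 library, 0.647 with coding length and 0.441 with the longest transcript. The start run was found in 34.5% of the ribosomal protein genes within 5 bases of the annotated start. Causes were not tested.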
